A study of Mus musculus with 4 samples.

Results

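Cytokines of the interleukin-2 family signal to T cells through receptors that share the common gamma chain. The genes that carry that signal inside the cell, with their feedback inhibitors and survival kinases, were examined in 4 RNA sequencing libraries of mouse cDNT cells. The genes were taken by name: the kinases Jak1 and Jak3, the factors Stat5a and Stat5b, the inhibitors Cish, Socs2 and Socs3, and the kinases Pim1, Pim2 and Pim3. Of these 10 genes, 9 have a row among the 24768 genes of the table. Jak1 is not analysed here. The libraries form 2 groups of 2, cDNT cells with the genotype WT and cDNT cells with the genotype Tbx21-KO, and the series title places both among double-negative T cells, which lack the CD4 and CD8 coreceptors. The labels give no strain, age, culture or stimulus for either group, do not say how Tbx21 was disrupted, and do not spell out cDNT. The design text speaks of a knockdown where the sample labels say KO. No label says whether the 2 libraries of a group come from separate animals or cultures, so a p-value here reflects the spread between libraries that may be technical repeats.

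Interleukin-2 brings the beta and gamma chains of its receptor together, which activates JAK1 and JAK3, and these kinases phosphorylate STAT5. STAT5 enters the nucleus and switches on target genes, among them CISH, SOCS2 and the PIM kinases. The CISH and SOCS proteins bind activated receptors or JAK kinases and dampen the signal, while the PIM kinases, which are active as soon as they are made, favour survival and growth of lymphocytes. SOCS3 is best known as a target of STAT3 and as an inhibitor of receptors that signal through gp130. Myeloid cells also use most of these genes.

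Values are FPKM, fragments for each kilobase of exon with library size taken into account, as the authors computed them, and are given in the order of libraries 1 and 2. They imply library totals of 23342603 to 24967028 counted reads. Tbx21, which encodes the factor T-bet, measured 13.2 and 11.7 FPKM in the WT libraries and 2.29 and 2.41 FPKM in the Tbx21-KO libraries. Transcripts of the T cell receptor list were present in both groups. Its 18 measured genes sum to 2128 to 2234 FPKM in WT and 1522 to 1555 FPKM in Tbx21-KO. Of these 18, 12 were called lower and 2 higher in Tbx21-KO. The 2 measured coreceptor genes sum to 3.68 to 4.77 FPKM in WT and 4.91 to 4.95 FPKM in Tbx21-KO, and neither was called. Many markers of other cell types were also high in both Tbx21-KO libraries. Their 11 granulocyte markers sum to 10517 to 10825 FPKM, against 6.33 to 8.73 FPKM in WT, where Csf3r and Cebpe were at 0 in WT 1. Their 7 measured macrophage and monocyte markers sum to 445 to 475 FPKM, against 179 to 180 FPKM in WT. Most of that WT sum was Ly6c2, at 164 and 162 FPKM, beside 183 and 192 FPKM in Tbx21-KO. Their 7 measured markers of mast cells, basophils and eosinophils sum to 446 to 452 FPKM, against 24.0 to 24.7 FPKM in WT. Of these last 7, 6 were called higher and Kit lower, from 18.0 and 17.2 FPKM in WT to 11.0 and 11.2 FPKM in Tbx21-KO. Of the 5 measured B cell markers, 4 were under 1 FPKM in both WT libraries and 3 in both Tbx21-KO libraries. Ighm, by contrast, measured 32.7 and 34.1 FPKM in WT and 37.5 and 37.3 FPKM in Tbx21-KO, and was called higher. Of the 7 measured dendritic cell markers, 3 were called higher in Tbx21-KO and 2 were not called. The part of these transcripts in the results below was not tested. In bulk RNA, fewer cells of a type and less RNA per cell cannot be told apart.

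Differences were tested with limma on log2(FPKM + 1) over the 11013 genes with a mean of at least 1 FPKM. A log2 fold change is Tbx21-KO minus WT on that scale, and a gene is called higher or lower at a Benjamini-Hochberg adjusted p under 0.05. All 9 genes passed the low-value limit in both groups, and the WT and Tbx21-KO libraries did not overlap for any of them, as for 79.0% of all genes tested. Called higher were 7 of the 9 and called lower 2, where 30.1% of all genes tested were called higher and 23.0% lower, or 53.1% in either direction. The median log2 fold change was 0.47 over the 9 genes and 0.04 over all genes tested. Jak3, both STAT5 genes, all 3 inhibitors and Pim1 rose, and Pim2 fell to 21.3% of its WT mean. Pim3 was called lower by a small margin, and this call depends on the scaling.

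**Figure D1:**
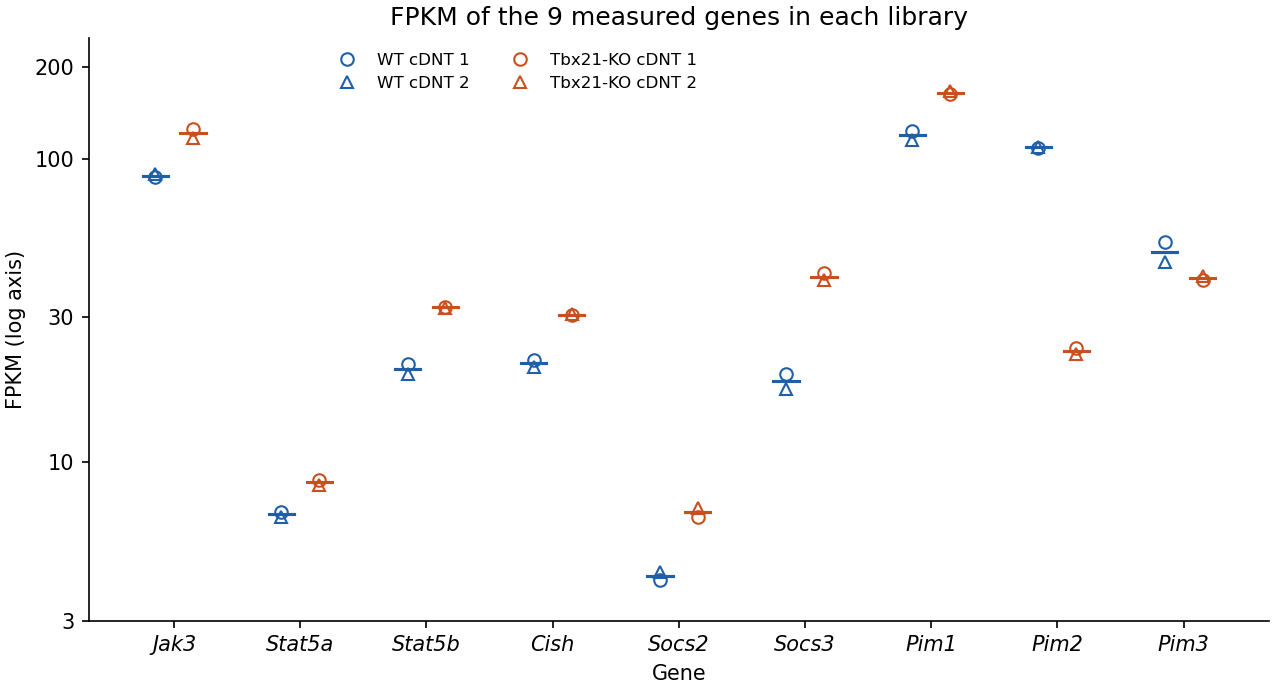
FPKM (log axis) of the 9 measured genes in each library, with circles for library 1, triangles for library 2 and bars for group means. The 2 libraries of a group lie close together for each gene, and Pim2 is the gene with the widest gap between groups, from 109 and 109 FPKM in WT 1 and 2 to 23.8 and 22.6 FPKM in Tbx21-KO 1 and 2.

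The upstream sequences of 3 genes are shown because they carry the largest rise (Socs3), the largest fall (Pim2) and the paralog of Pim2 that moved the other way (Pim1). Each line gives 160 bases, from 250 to 91 bases before the start of the gene in RefSeq (GRCm38.p6), 5′ to 3′ on the strand of the gene. Capitals mark the STAT motif TTCNNNGAA, in which N is any base. The stretches are chr11:117969457-117969616 on the minus strand for Socs3, chr17:29490535-29490694 on the plus strand for Pim1 and chrX:7878056-7878215 on the plus strand for Pim2. They lie before the exons of these genes in GENCODE M21, except that a longer non-coding Socs3 transcript starts further upstream, so that the Socs3 stretch is intronic to it.
Socs3: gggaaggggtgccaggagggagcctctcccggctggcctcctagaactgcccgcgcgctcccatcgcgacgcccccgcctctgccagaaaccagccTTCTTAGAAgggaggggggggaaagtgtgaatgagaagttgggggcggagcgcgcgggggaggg
Pim1: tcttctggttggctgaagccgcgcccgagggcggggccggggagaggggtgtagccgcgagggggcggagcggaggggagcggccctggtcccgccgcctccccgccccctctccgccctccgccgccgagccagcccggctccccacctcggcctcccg
Pim2: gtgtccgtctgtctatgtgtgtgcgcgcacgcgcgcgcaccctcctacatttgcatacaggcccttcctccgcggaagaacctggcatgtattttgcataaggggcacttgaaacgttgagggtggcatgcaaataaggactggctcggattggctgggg
The Socs3 stretch holds 1 STAT motif, which begins 154 bases before the start. Over 250 bases upstream, with both strands searched, it was the only STAT motif in the 12 upstream windows that RefSeq's table gives for 9 of the 10 genes. Socs2 has no entry. Of all 32851 windows of this length in the table, 7.02% hold this motif. The T-box core GGTGTGA occurs in 3.33% of all windows and, among the windows of these genes, in 1 of Stat5a. GC content was 80.6% in the Pim1 stretch and 56.9% in the Pim2 stretch.

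Jak3 (ENSMUSG00000031805, protein-coding, GRCm38 chromosome 8, 71676296 to 71690575) encodes the kinase that binds the common gamma chain itself. It measured 87.0 and 88.8 FPKM in the WT libraries and 125.2 and 116.8 FPKM in the Tbx21-KO libraries. Both Tbx21-KO libraries were above both WT libraries, with a mean of 138% of WT. The log2 fold change was 0.46 (limma, SE 0.05, adjusted p = 0.00161). These FPKM correspond to 11462 to 15643 estimated reads per library, so counting error is small beside the difference. Jak3 shares 404 bases of exon, or 7.55% of its exon length, with Insl3 on the same strand, and reads there cannot be assigned to 1 of the 2 genes. Insl3 was called higher as well, from 12.0 and 14.4 FPKM in WT to 20.9 and 23.1 FPKM in Tbx21-KO.

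STAT5 is encoded by a pair of neighbouring genes on chromosome 11 whose proteins act on largely the same targets. Stat5b (ENSMUSG00000020919, GRCm38 chromosome 11, 100780731 to 100850724) measured 21.04 and 19.55 FPKM in the WT libraries and 32.5 and 32.1 FPKM in the Tbx21-KO libraries. Both Tbx21-KO libraries were above both WT libraries, at 159% of the WT mean. The log2 fold change was 0.65 (limma, SE 0.05, adjusted p = 0.000618). Stat5a (ENSMUSG00000004043, GRCm38 chromosome 11, 100859351 to 100885169), which lies 8627 bases from Stat5b on the opposite strand, measured 6.86 and 6.60 FPKM in the WT libraries and 8.75 and 8.39 FPKM in the Tbx21-KO libraries. Its groups did not overlap either, but the gap was narrower, with a log2 fold change of 0.31 (limma, SE 0.05, adjusted p = 0.00798). Without Tbx21-KO 1 the call of Stat5a was lost, at a log2 fold change of 0.28 (adjusted p = 0.0572).

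Per exon length, Stat5b was the more abundant of the pair in all 4 libraries. Its share of the summed Stat5a and Stat5b FPKM was 75.4% and 74.8% in WT 1 and 2 and 78.8% and 79.3% in Tbx21-KO 1 and 2. The sum itself went from 26.2 to 27.9 FPKM in WT to 40.5 to 41.3 FPKM in Tbx21-KO. Stat3 lies on the other side of Stat5a and shares 72 bases of exon with it, on the opposite strand. Stat3 measured 37.2 and 36.1 FPKM in the WT libraries and 33.3 and 32.7 FPKM in the Tbx21-KO libraries, and was called lower, at -0.15 on the log2 scale. That call was lost with no variance trend (limma adjusted p = 0.0671) and without WT 1, Tbx21-KO 1 or Tbx21-KO 2.

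All 3 feedback inhibitors rose. Socs3 (ENSMUSG00000053113, GRCm38 chromosome 11, 117966079 to 117970047) had the largest rise of the 9 genes. It measured 19.4 and 17.5 FPKM in the WT libraries and 42.0 and 39.7 FPKM in the Tbx21-KO libraries. The Tbx21-KO libraries were at 2.21 times the WT mean, at group means of 18.5 ± 1.39 (WT) and 40.8 ± 1.56 FPKM (Tbx21-KO; SD, n = 2 each), a difference far wider than the spread within the groups. The log2 fold change was 1.11 (limma, SE 0.06, adjusted p = 0.000282). Among the 3315 genes called higher it ranked 759th by log2 fold change, so rises of this size were common in these libraries.

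Cish (ENSMUSG00000032578, GRCm38 chromosome 9, 107296026 to 107302784) encodes an inhibitor that is induced by STAT5 and binds the receptor. It measured 21.7 and 20.6 FPKM in the WT libraries and 30.4 and 30.8 FPKM in the Tbx21-KO libraries, with a log2 fold change of 0.51 (limma, SE 0.04, adjusted p = 0.000875). Both Tbx21-KO libraries lay above both WT libraries. On the opposite strand, Gm17041 overlaps 7.46% of the exon length of Cish and Gm17040 another 4.07%, and reads there cannot be told apart without strand. Socs2 (ENSMUSG00000020027, GRCm38 chromosome 10, 95385362 to 95417180), a STAT5 target best known as a brake on growth hormone signalling, was the least abundant of the 9 genes per exon length. It measured 4.08 and 4.34 FPKM in the WT libraries and 6.60 and 7.06 FPKM in the Tbx21-KO libraries, values that rest on 970 to 1616 estimated reads. The groups did not overlap, and the log2 fold change was 0.59 (limma, SE 0.06, adjusted p = 0.00189).

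The order of Cish and Socs3 by FPKM differed between the groups. In WT, Cish held 48.0% and 48.6% of the summed FPKM of the 3 inhibitors and Socs3 43.0% and 41.2%. In Tbx21-KO, Cish held 38.5% and 39.7% and Socs3 53.1% and 51.2%. The share of Socs2 was 9.01% and 10.2% in WT and 8.36% and 9.09% in Tbx21-KO, ranges that overlap. The sum of the 3 was 42.4 to 45.2 FPKM in WT and 77.6 to 79.0 FPKM in Tbx21-KO.

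The PIM kinases moved in both directions. Pim2 (ENSMUSG00000031155, GRCm38 chromosome X, 7878262 to 7883432), a kinase that sustains lymphocyte survival and protein synthesis, measured 109 and 109 FPKM in the WT libraries and 23.8 and 22.6 FPKM in the Tbx21-KO libraries. In estimated reads these are 7574 and 7376 in WT and 1554 and 1520 in Tbx21-KO. The means were 109 ± 0.59 (WT) and 23.2 ± 0.84 FPKM (Tbx21-KO; SD, n = 2 each), so the libraries of each group were close to each other and far from the other group. The log2 fold change was -2.18 (limma, SE 0.04, adjusted p = 1.39e-05), the 14th largest fall among the 2531 genes called lower. By mean FPKM, Pim2 went from place 401 among the 11013 genes tested in WT to place 2364 in Tbx21-KO.

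Pim1 (ENSMUSG00000024014, GRCm38 chromosome 17, 29490753 to 29496112), a classical STAT target gene, measured 123 and 115 FPKM in the WT libraries and 163 and 167 FPKM in the Tbx21-KO libraries. Its groups did not overlap, with a log2 fold change of 0.47 (limma, SE 0.05, adjusted p = 0.00149). Per exon length, Pim1 was at 1.13 and 1.05 times the FPKM of Pim2 in WT 1 and 2 and at 6.83 and 7.37 times in Tbx21-KO 1 and 2. An antisense gene, Gm26885, overlaps 14.5% of the exon length of Pim1, and since it is not known whether counting used strand, reads there cannot be told apart.

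Pim3 (ENSMUSG00000035828, GRCm38 chromosome 15, 88862186 to 88865726) measured 53.0 and 45.7 FPKM in the WT libraries and 39.8 and 41.1 FPKM in the Tbx21-KO libraries. The groups did not overlap, but the gap between their nearest libraries was smaller than the gap between the 2 WT libraries. The log2 fold change was -0.28 (limma, SE 0.08, adjusted p = 0.0352). The call was lost without Tbx21-KO 1 (adjusted p = 0.153) and without Tbx21-KO 2 (adjusted p = 0.109), and after the T cell list scaling described below the log2 fold change was 0.11 (adjusted p = 0.32). Set against the median of all genes, Pim3 was at -0.31 in the deposited values and at -0.27 after that scaling. These values are close by construction, since subtracting the median takes the shift of the scaling out again.

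The summed FPKM of the 3 PIM genes was 270 to 285 in WT and 226 to 231 in Tbx21-KO, an order that the T cell list scaling turned to 231 to 254 in WT and 259 to 264 in Tbx21-KO. The share of Pim2 in that sum was 38.1% and 40.5% in WT 1 and 2 and 10.5% and 9.81% in Tbx21-KO 1 and 2. The share of Pim1 was 43.3% and 42.6% in WT and 71.9% and 72.3% in Tbx21-KO. The share of Pim3 stayed between 16.9% and 18.6% in all 4 libraries, with overlapping groups. These shares do not depend on how libraries are scaled to each other.

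**Figure D2:**
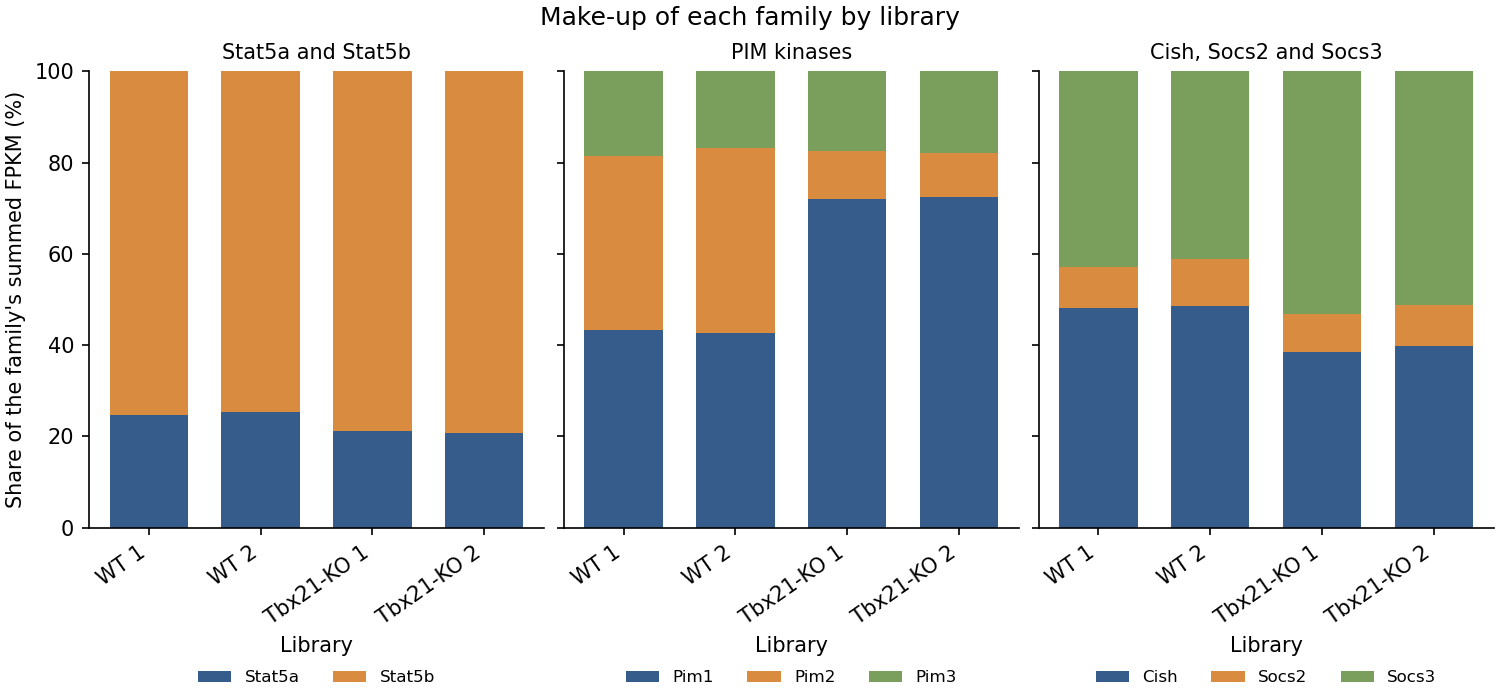
Share (%) of each gene in the summed FPKM of its family, with 1 stacked bar per library, for the STAT5 pair, the PIM kinases and the 3 inhibitors. Pim2 takes 38.1% and 40.5% of the PIM sum in WT and 10.5% and 9.81% in Tbx21-KO, while Stat5b stays the larger part of the STAT5 pair throughout.

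Genes close to Pim2 had smaller changes. Of the 6 genes with a row within 50 kb, a window chosen after the values of Pim2 were seen, 5 were tested, 2 were called lower, 1 higher and 2 were not called. Over all genes tested, 23.0% were called lower and 30.1% higher, and whether neighbours differ from these shares was not tested. Otud5, 1636 bases away, measured 27.2 and 28.2 FPKM in the WT libraries and 21.2 and 20.8 FPKM in the Tbx21-KO libraries, a log2 fold change of -0.38. Slc35a2, 596 bases away, measured 7.28 and 7.12 FPKM in the WT libraries and 7.49 and 6.74 FPKM in the Tbx21-KO libraries and was not called. Some neighbours of Cish, Jak3 and Pim3 moved as far as these genes themselves. All 3 tested neighbours of Cish within 50 kb were called higher, Mapkapk3 at 0.63, Hemk1 at 0.52 and 6430571L13Rik at 0.87 on the log2 scale, beside 0.51 for Cish. Of the 5 tested near Jak3, 3 were called higher, among them Fcho1 at 0.52, beside 0.46 for Jak3. Pgs1, the only tested neighbour of Socs3, was called higher at 0.65, beside 1.11 for Socs3. Of the 2 tested near Pim3, Creld2 was called lower at -0.24 and Alg12 was not called at -0.28, beside -0.28 for Pim3. Of the 4 tested near Stat5b, which include Stat5a and Stat3, 3 were called higher and 1 lower. Among them Ghdc was at 0.32 and Rab5c at 0.14, beside 0.65 for Stat5b.

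Ordered by mean FPKM per exon length, the genes in WT ran Pim1, Pim2, Jak3, Pim3, Cish, Stat5b, Socs3, Stat5a and Socs2. The libraries of Cish and Stat5b overlapped in WT, so that pair has no order there, whereas the libraries of Stat5b and Socs3 lay next to each other without overlap. In Tbx21-KO the order was Pim1, Jak3, Socs3, Pim3, Stat5b, Cish, Pim2, Stat5a and Socs2, with the libraries of Socs3 and Pim3 overlapping. Pim2 moved from the second place to the seventh and Socs3 from the seventh to the third. Exon lengths run from 2427 bases for Pim3 to 9531 bases for Socs2 and include every annotated isoform, so a gene with rarely used exons has a lower FPKM than its main transcript alone would give.

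The libraries were also rescaled so that the T cell receptor list had the same typical level in each, since the T cell list and the markers of other cells moved in opposite directions. This moved the median log2 fold change of all genes from 0.04 to 0.38, so a small fall turns into a rise under it by the scaling itself, and such turns are given as values only. A rise grows by about the same shift, so calls of rises kept under this scaling are no separate check. Under it the 7 genes called higher were still called higher, with log2 fold changes of 0.85 for Jak3, 0.66 for Stat5a, 1.03 for Stat5b, 0.89 for Cish, 0.92 for Socs2, 1.49 for Socs3 and 0.86 for Pim1. Pim2 was still called lower, at -1.80 (limma adjusted p = 2.4e-06). The same scaling called 7143 genes higher and 613 lower among all 11013 tested. Set against the median of all genes under the same scaling, the log2 fold changes of the deposited values and of the rescaled ones were 0.42 and 0.47 for Jak3, 0.27 and 0.28 for Stat5a, 0.61 and 0.65 for Stat5b, 0.47 and 0.52 for Cish, 0.55 and 0.54 for Socs2, 1.07 and 1.11 for Socs3 and 0.43 and 0.48 for Pim1. Those of Pim2 were -2.22 and -2.17 and those of Pim3 -0.31 and -0.27. Subtracting the median takes the shift of the scaling out again, so both values of a gene are close by construction.

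**Figure D3:**
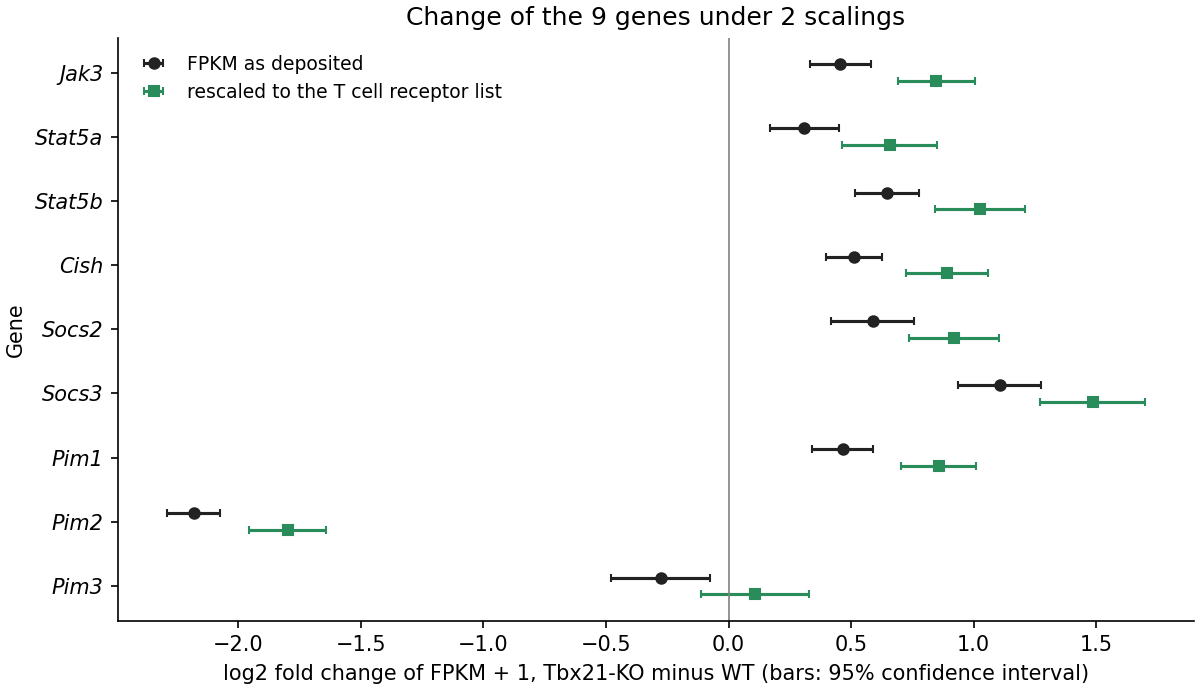
Log2 fold change of FPKM + 1 (Tbx21-KO minus WT) of the 9 genes with 95% confidence intervals from limma, for the deposited values (circles) and after rescaling to the T cell receptor list (squares). The squares of 8 genes stay on the side of 0 where their circles are; Pim3 goes from -0.28 to 0.11.

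The receptors above these kinases changed in both directions. Of 8 common gamma chain receptor genes, 7 were tested, 2 were called higher, 4 lower and 1 was not called, with a median log2 fold change of -0.15. After the T cell list scaling 4 were called higher and 2 lower, with a median of 0.23 against 0.38 over all genes. That scaling called 7143 of all 11013 genes tested higher and 613 lower. Il7r, the interleukin-7 receptor of resting lymphocytes, measured 5.52 and 5.70 FPKM in the WT libraries and 45.0 and 42.5 FPKM in the Tbx21-KO libraries, a log2 fold change of 2.76. Il2ra, the inducible chain that gives the interleukin-2 receptor its high affinity and is itself a STAT5 target, went from 140 and 137 to 259 and 249 FPKM, or 0.87 on the log2 scale. Il2rb, the chain to which JAK1 binds, fell by 0.85, from 835 and 823 to 464 and 452 FPKM, and Il21r fell by 0.99. Il2rg, the common gamma chain, was called lower at -0.26 and Il4ra at -0.15, directions that the T cell list scaling turned to 0.13 and 0.23. The call of Il4ra was also lost without WT 1, Tbx21-KO 1 or Tbx21-KO 2 (limma adjusted p = 0.0528, 0.0825 and 0.0958). Il15ra was not called, with a log2 fold change of 0.06. After the T cell list scaling it was called higher, at 0.39 (limma adjusted p = 0.0055), beside a median of 0.38 over all genes. Set against the median of all genes, Il15ra was at 0.02 before and after that scaling, so its call there is given as a value only. Il9r was under 1 FPKM in all libraries.

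Of the 6 cytokines of the family, 5 have a row and 2 were tested, both through the Tbx21-KO libraries. Il9 measured 0.67 and 0.39 FPKM in the WT libraries and 12.6 and 13.5 FPKM in the Tbx21-KO libraries, and Il4 measured 0.46 and 0.27 FPKM in the WT libraries and 2.55 and 2.03 FPKM in the Tbx21-KO libraries. Il2 was at 0.035 FPKM in WT 1 and at 0 in the other 3 libraries. Il7 and Il15 stayed under 1 FPKM in all 4.

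Among 6 other JAK and STAT genes, 2 were called higher, 3 lower and 1 was not called, with a median log2 fold change of -0.07. After the T cell list scaling 4 were called higher and none lower, with a median of 0.31 against 0.38 over all genes. Of all genes tested, 30.1% were called higher and 23.0% lower in the fit reported, and 7143 and 613 of 11013 with that scaling. Stat2, which carries type I interferon signals, rose by 0.56 on the log2 scale, from 14.7 and 15.9 to 23.9 and 22.2 FPKM. Tyk2, a kinase of the interleukin-12 and type I interferon receptors, rose by 0.29, a call lost without Tbx21-KO 1 (adjusted p = 0.0911). Jak2, the kinase of many myeloid cytokine receptors, was called lower at -0.35, Stat4, the factor downstream of interleukin-12, at -0.22 and Stat3 at -0.15. With the T cell list scaling these 3 were at 0.04, 0.14 and 0.24. Set against the median of all genes they were at -0.38, -0.26 and -0.19 in the deposited values and at -0.34, -0.23 and -0.14 after that scaling, values that are close by construction. Without WT 1 or without Tbx21-KO 1 the calls of Stat3 and Stat4 were lost and 1 gene of those 6 was called lower, while without WT 2 only that of Stat4 was lost and without Tbx21-KO 2 only that of Stat3. Stat6, which acts downstream of interleukin-4, was not called, at 0.0035 on the log2 scale. After the T cell list scaling it was called higher, at 0.39 (limma adjusted p = 0.00219), beside a median of 0.38 over all genes. Set against the median of all genes, Stat6 was at -0.03 in the deposited values and at 0.01 after that scaling, so its call there is given as a value only.

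Of the 4 SOCS genes with a row other than Socs2 and Socs3, none was called higher and 1 was called lower. Socs5 was at -0.29 on the log2 scale, a call lost in 7 other fits, among them those without each of the 4 libraries (adjusted p = 0.0754 to 0.151), and Socs4, Socs6 and Socs7 were not called, at -0.0045, -0.09 and -0.14. Whether the 2 sets of SOCS genes differ was not tested. Other scalings changed these calls. With quantile normalization 3 of the 4 were called lower, among them Socs6 at -0.34 and Socs7 at -0.30 (limma adjusted p = 0.0287 and 0.0094), and with median-of-ratios scaling 2, among them Socs7 at -0.18 (adjusted p = 0.0456). With the T cell list scaling Socs4 was called higher, at 0.34, beside a median of 0.38 over all genes, and none was called lower. Set against the median of all genes, Socs4 was at -0.04 before and after that scaling.

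Of 10 measured phosphatases, PIAS proteins and adaptor inhibitors of JAK-STAT signalling, 4 were called higher, 1 lower and 5 were not called, with a median log2 fold change of 0.10. The T cell list scaling gave 9 higher and none lower, with a median of 0.47 against 0.38 over all genes. Over all 11013 genes tested, that scaling called 7143 higher and 613 lower. Ptpn1, a phosphatase that acts on JAK2 and TYK2, had the largest change among them, with 24.9 and 25.4 FPKM in WT and 75.0 and 69.9 FPKM in Tbx21-KO, a log2 fold change of 1.49. Pias4, Pias2 and Ptpn6 were higher by 0.44, 0.27 and 0.15. Sh2b3, an adaptor that restrains JAK2, was called lower at -0.30, or at 0.05 with the T cell list scaling. Without Tbx21-KO 1 or without Tbx21-KO 2 the calls of Pias2, Ptpn6 and Sh2b3 were lost, leaving 2 genes higher and none lower. The calls of Ptpn6 and Sh2b3 were also lost without WT 1, and that of Pias2 without WT 2.

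Of 13 other STAT5 target genes, all tested, 8 were called higher, 2 lower and 3 were not called, with a median log2 fold change of 0.40 against 0.04 over all genes. After the T cell list scaling 12 were called higher and none lower, with a median of 0.80 against 0.38. Higher calls under that scaling made up 7143 of all 11013 genes tested. Osm, which encodes the cytokine oncostatin M, went from 16.8 and 13.4 FPKM in WT to 63.2 and 64.6 FPKM in Tbx21-KO, or 2.02 on the log2 scale. Gfi1, a repressor used by lymphocytes and granulocyte precursors, rose by 1.08, Lta, which encodes lymphotoxin alpha, by 0.91, and Ccnd3, which encodes cyclin D3, by 0.56. The 2 lower genes, named after their values were seen, were the survival genes Bcl2 and Mcl1, at -0.17 and -0.25, which the T cell list scaling turned to 0.22 and 0.14. The call of Bcl2 was lost without WT 1, Tbx21-KO 1 or Tbx21-KO 2 (limma adjusted p = 0.0544, 0.072 and 0.0926) and that of Mcl1 without Tbx21-KO 1 (adjusted p = 0.0931).

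Substrates of the PIM kinases were listed as the downstream side of Pim2 and Pim1. Of 11 tested, 6 were called higher, 2 lower and 3 were not called, with a median log2 fold change of 0.24. The T cell list scaling gave 9 higher and 2 lower, with a median of 0.63 against 0.38 over all genes, of which 7143 of 11013 were called higher. Foxo1, a transcription factor of quiescent lymphocytes, fell by 0.93, from 16.2 and 15.3 to 8.05 and 7.63 FPKM, and Eif4ebp1, a repressor of translation, by 0.58. Cdc25a, Foxo3 and Cdkn1a rose by 0.60, 0.55 and 0.51. PIM kinases act on these proteins by phosphorylation, which RNA levels do not show.

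A list of cytokine receptors taken as coupled to JAK2 in myeloid cells, which includes gp130, was also examined. Of its 10 genes, 6 were tested, 5 were called higher and 1 lower, with a median log2 fold change of 2.91. Of the 6, 1 passed the low-value limit through the Tbx21-KO libraries alone. The median was 1.67 with no filter on low values, where 8 genes were tested, and 1.88 with a pseudocount of 5. Csf2rb, the shared chain of the receptors for interleukin-3, interleukin-5 and GM-CSF, measured 2.13 and 2.24 FPKM in the WT libraries and 37.8 and 37.6 FPKM in the Tbx21-KO libraries. Csf3r, the receptor of G-CSF, measured 0 and 0.01 FPKM in the WT libraries and 16.2 and 15.3 FPKM in the Tbx21-KO libraries. Csf2ra, Csf2rb2 and Il3ra rose by 2.84, 2.97 and 0.49 on the log2 scale. Il6st, which encodes gp130 and was named after its value was seen, was called lower at -0.44, a call lost without WT 2 or Tbx21-KO 1 (limma adjusted p = 0.0891 and 0.0683), with no filter on low values (0.0608) and after the T cell list scaling (0.146). Of the 18 tested genes of the T cell receptor list, 12 were lower and 2 higher in the same comparison, with log2 fold changes of -1.41 for Cd28, -1.24 for Lck, -0.88 for Trac, -0.85 for Trbc1 and 1.35 for Trat1. The part of myeloid transcripts in the rises of Jak3, Stat5a, Stat5b, Cish, Socs2, Socs3 and Pim1 was not tested.

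**Figure D4:**
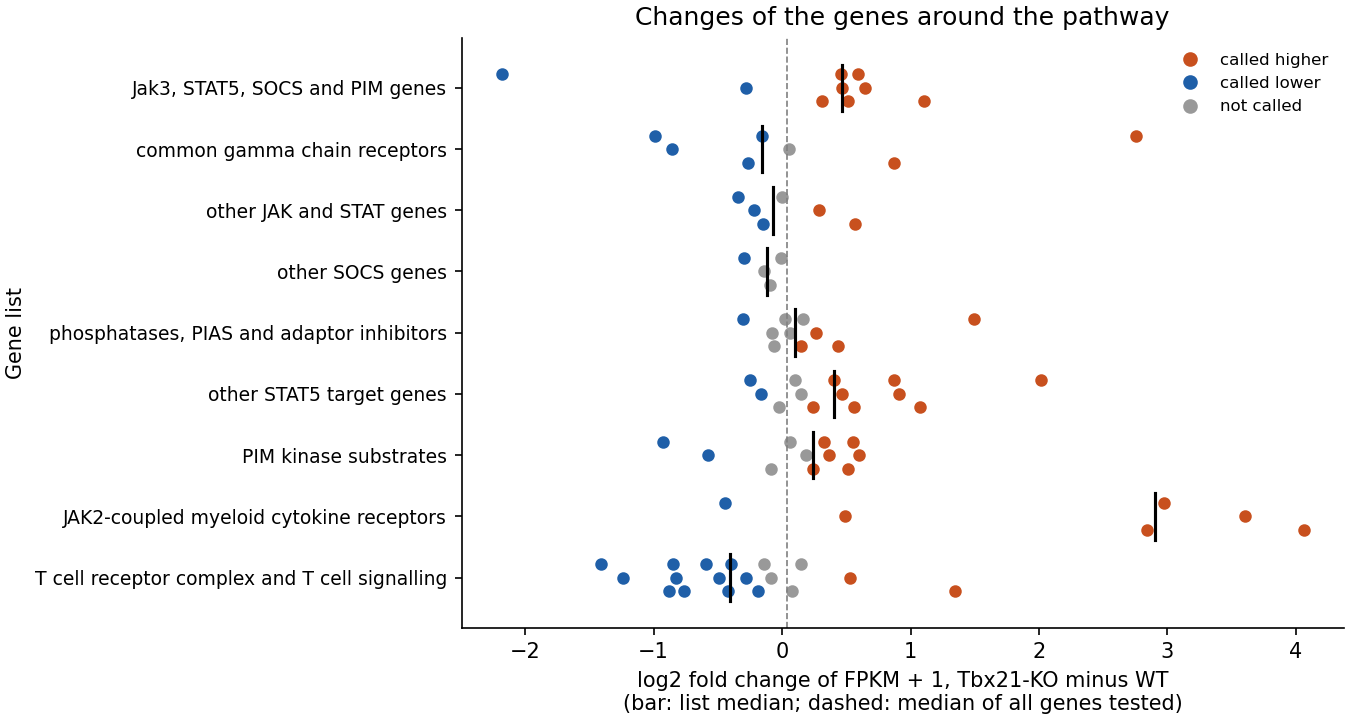
Log2 fold change of FPKM + 1 (Tbx21-KO minus WT) of each tested gene by list, coloured by call, with a bar at each list's median and a dashed line at the median of all genes tested, 0.04. The lists of cell type markers other than the T cell receptor list are not drawn. Among the lists drawn, the myeloid cytokine receptors reach furthest to the right, with a median of 2.91, and the T cell receptor list has a median of -0.41.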

How the data were processed

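The deposited values are FPKM, made by the authors with 1 column per library. Libraries were made with an mRNA kit, per the labels, and the submitters' processing notes name the builds GRCm38 and mm10. Aligner, counter, annotation and strand setting: not given in the sources used here. Of 24769 rows the last breaks off and was left out. Ensembl IDs were matched to GENCODE M21 (GRCm38; 24720 matched). Library totals were estimated from union exon lengths: 96.7% to 97.3% of values under 20 reads were whole within 0.1 read.

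Log2(FPKM + 1) was fitted with limma 3.58.1 (R 4.3.3, variance trend) where the mean FPKM reached 1, with Benjamini-Hochberg adjustment over the 11013 genes tested. An exact permutation test of 2 against 2 libraries reaches a two-sided p of 0.33 at best and was not used. Data were simulated with a dispersion of 0.000828, estimated from the WT pair. There the fit recovered 26.5% of 1.25-fold, 89.8% of 1.5-fold, 95.9% of 2-fold and 100% of 4-fold changes in genes with many reads. It made 17 false calls among 10399 genes. That estimate takes out too much counting noise and so is too low, and far fewer genes were changed than were called in the data. The recovered shares may therefore be too high. The libraries of a pair differed by more than counting noise (median chi-square per gene 1.31 in WT and 1.21 in Tbx21-KO, against 0.45), so neither pair agreed within counting noise and each library was counted; this does not show that they are separate animals or cultures. One gene of the list of other JAK and STAT genes is not reported here and was left out of that list's counts. All genes of the pathway were named, with Tbx21 and up to 5 of the largest called changes per other list; in lists of 8 genes or fewer any gene could be named. Markers at 0 and genes beside or overlapping a pathway gene were named outside this rule, after their values were seen. The pathway genes and lists, including the T cell list scaling, were chosen with earlier results of these data known. Alternatives covered the pseudocount, low-value limit, scaling, variance trend, voom, a replicate block and leaving out each library.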

Additional observations from a re-analysis of the deposited data

How the results depend on the processing

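Under all 15 alternatives Jak3, Stat5b, Cish, Socs2, Socs3 and Pim1 stayed higher and Pim2 lower with an adjusted p under 0.05; the log2 fold change of Pim2 ran from -2.23 to -1.80 and that of Socs3 from 0.97 to 1.49. Stat5a kept its direction and lost its call in 1 alternative. Of the 15, the T cell list scaling shifts log2 fold changes upward, so the rises could hardly lose their calls under it. Of the 9 genes, 1 instead of 2 was called lower with no filter on low values, with the T cell receptor list scaling and with no variance trend, and 1 to 2 when each library was left out in turn; the gene lost was Pim3 each time. Over all genes, 2018 were higher at a mean FPKM of at least 5, where fewer genes are tested, and 7143 with the T cell list scaling; 3801 were lower after quantile normalization and 613 with the T cell list scaling, and the cause was not tested. Of all calls, 56.7% were higher in the fit reported, against 39.1% under quantile normalization and 92.1% with the T cell list scaling. Signs turned with the T cell list scaling for Pim3 (0.11), Il2rg (0.13), Il4ra (0.23), Jak2 (0.04), Stat3 (0.24), Stat4 (0.14), Socs4 (0.34), Socs6 (0.22), Socs7 (0.20), Sh2b3 (0.05), Bcl2 (0.22) and Mcl1 (0.14). Il15ra turned to -0.11 after quantile normalization. Stat6 turned to -0.04 with median-of-ratios scaling, and, over the fits without 1 library, ran from -0.02 to 0.03 (-0.01 without WT 2 and -0.02 without Tbx21-KO 1), and Socs4 to 0.0025 without Tbx21-KO 2. Among 47 tested genes named from the other lists, with Kit, Ly6c2 and Ighm not included, 628 of 696 values under the alternatives kept direction and call. Genes of the longer lists were named for their largest called changes in these same data, which favours keeping a call. The libraries share replicate numbers, but no label ties the numbers to an animal or day, and the deviations of same-numbered libraries correlated at -0.02 over genes. With a replicate block 3245 genes were higher and 2482 lower, and all 9 calls of the pathway genes were kept (7 higher, 2 lower), while among the other 47 genes the calls of Stat4 (limma adjusted p = 0.0654) and Socs5 (adjusted p = 0.0532) were lost.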
